A study of Glycine max with 18 samples.

Results

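The genes described here belong to the abscisic acid (ABA) pathway of soybean: the synthesis gene NCED3 (Glyma.08G176300), the protein phosphatase 2C (PP2C) genes HAB1 (Glyma.09G066500 and Glyma.15G172500) and the receptor gene PYL5 (Glyma.11G233300). They are 4 of the 56044 genes in the deposited table, on chromosomes 8, 9, 15 and 11 by their identifiers, and were followed through all 18 libraries. They were selected on their RPKM in embryonic axes at 24 hours after imbibition (HAI), which the study listed as at least 2-fold different between paclobutrazol (PBZ) and control. The values at 24 HAI are therefore a description of the choice, without a test, while the values at 12 and 36 HAI were not used in it. Gene names follow the best Arabidopsis match in the study's tables.

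ABA is the hormone that holds seeds dormant and delays germination, against gibberellin, which promotes it. NCED enzymes cleave 9-cis-epoxycarotenoids and so control the rate of ABA synthesis. In Arabidopsis, receptors of the PYR/PYL family bind ABA and then inhibit clade A PP2Cs such as HAB1. Those phosphatases otherwise keep SnRK2 kinases inactive, and free SnRK2 kinases phosphorylate transcription factors of the ABF/ABI5 family.

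The samples were embryonic axes of Glycine max cultivar BRS 284, taken at 12, 24 or 36 HAI from seeds germinated at 28 ºC on cotton with water (control) or with water and 200 µM PBZ, an inhibitor of gibberellin synthesis. Each sample stood for 3 plates of 20 seeds, and each of the 6 conditions had 3 samples, which were not said to come from separate seed lots. The p-values below therefore measure the spread between such samples. Polyadenylated RNA was sequenced, and levels are in RPKM, a read count scaled to transcript length and library size, given as mean ± SD with n = 3. In whole axes, fewer cells of a type and less RNA per cell cannot be told apart. As a check of the tissue, 1 axis marker could be found by its annotation, a SHORT-ROOT gene (Glyma.01G194200, a root patterning factor), which had group means of 1.89 to 3.92 RPKM in the 6 conditions. Reserve protein genes were not checked for lack of an annotation.

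Libraries differed in 63 genes that are called organelle-like here. The study describes a set of that size, picked from these same libraries because PBZ moved its genes in opposite directions at the later times. It likens a part of that set, not all of it, to plastid or mitochondrial genes. The 63 genes took 3.85 to 11.4% of the summed RPKM in 9 libraries and 0.187 to 0.732% in the other 9. For genes picked in that way, shares at 24 and 36 HAI are not independent of the treatment. At 24 HAI the shares were 0.248 to 0.308% in control and 4.43 to 7.37% in PBZ, so this difference between libraries and the treatment cannot be told apart there. Control replicate 2 at 12 HAI (0.732%) and control replicate 3 at 36 HAI (5.03%) stood apart from the other libraries of their times, and both were left out in turn. Relative depth, read from the steps between low RPKM values, spanned 0.807 to 2.85 times that of control replicate 1 at 24 HAI.

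**Figure D1:**
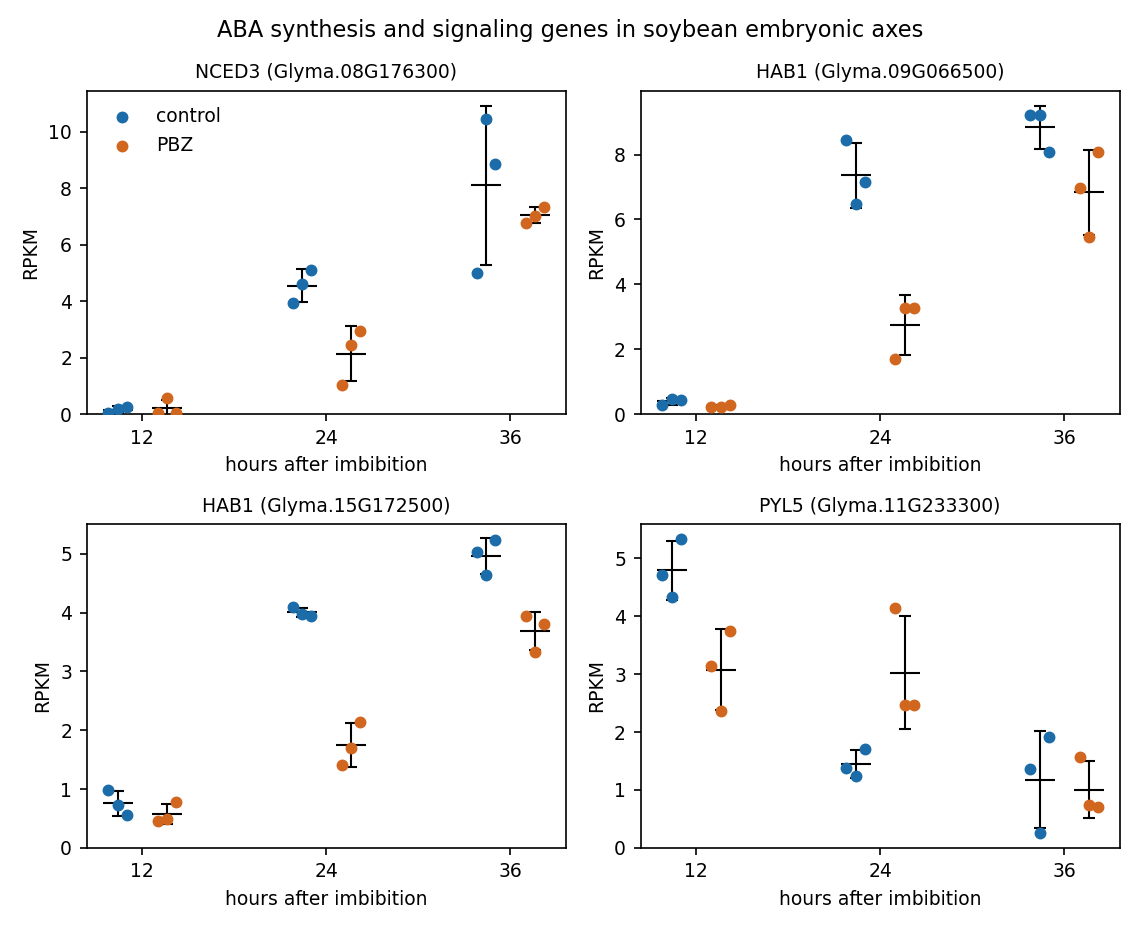
RPKM (linear axes from 0) of the 4 genes in each library by hours after imbibition, in control and PBZ. Points are libraries, horizontal ticks are means and bars are 1 SD (n = 3). NCED3 and both HAB1 genes were low at 12 HAI and high at 36 HAI, where NCED3 reached 8.10 RPKM in control, and PYL5 was highest in control at 12 HAI (4.80 RPKM).

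NCED3 was close to silent at 12 HAI and well expressed by 36 HAI in both treatments. In control at 12 HAI its values were 0.0379, 0.175 and 0.270 RPKM in replicates 1 to 3, and in PBZ they were 0.0337, 0.569 and 0.0384 RPKM. If the smallest of these values stands for 1 read, the 12 HAI values rest on about 1 to 26.3 reads, so they are imprecise and the groups overlapped. By 36 HAI control had 4.995, 10.5 and 8.85 RPKM and PBZ 6.76, 7.01 and 7.33 RPKM. The PBZ libraries lay inside the range of the controls, of which replicate 1 was the lowest.

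From 12 to 36 HAI the mean of NCED3 went from 0.161 ± 0.117 to 8.10 ± 2.80 RPKM in control and from 0.214 ± 0.308 to 7.04 ± 0.284 RPKM in PBZ. The change in control was 5.02 (SE 0.42) on the log2(RPKM + 0.1) scale with a Benjamini-Hochberg adjusted p of 3.0e-05 in limma, and in PBZ it was 4.95 (SE 0.60, limma adjusted p = 0.000245). The pseudocount of 0.1 makes such changes smaller than the ratio of the means, which was 50.3 in control and 32.9 in PBZ. These ratios hang on the near-silent 12 HAI libraries: the PBZ ratio was 195.4 without PBZ replicate 2 and the control ratio 76.1 without control replicate 3 at 12 HAI. Without both libraries that stood apart, the change in control was 5.02 (limma adjusted p = 0.00165). NCED3 was tested only because its 36 HAI libraries averaged 1 RPKM or more, a filter that favours a rise. Without that filter the limma adjusted p was 6.4e-05 in control and 0.00042 in PBZ.

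At 24 HAI, the time used to choose it, NCED3 had 3.93, 4.60 and 5.10 RPKM in control and 1.05, 2.45 and 2.94 RPKM in PBZ. Each PBZ library lay below each control library, and the mean was 2.12-fold lower in PBZ (2.15 ± 0.980 against 4.55 ± 0.587 RPKM). The control mean at 24 HAI was 28.2 times that at 12 HAI, and the mean at 36 HAI was 1.78 times that at 24 HAI, with overlapping libraries. In PBZ these ratios were 10.1 and 3.28. Without the same 12 HAI libraries the first step was 59.7-fold in PBZ and 42.7-fold in control. Steps to and from 24 HAI were not tested.

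The HAB1 gene Glyma.09G066500 followed a like course. In control at 12 HAI it had 0.276, 0.467 and 0.454 RPKM, and in PBZ 0.232, 0.211 and 0.290 RPKM, with overlap between the groups. By 36 HAI control had 9.22, 9.23 and 8.07 RPKM and PBZ 6.97, 5.47 and 8.08 RPKM. The highest PBZ library and the lowest control library were nearly equal there. The change from 12 to 36 HAI was 4.18 (SE 0.21) in control and 4.32 (SE 0.23) in PBZ on the log2 scale, with limma adjusted p of 3.1e-06 and 6.8e-06. This gene too passed the filter of 1 RPKM only through its 36 HAI libraries, which favours a rise.

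The other HAB1 gene, Glyma.15G172500, had higher values at 12 HAI and a smaller log2 change, a difference between the copies that was not tested. At 12 HAI it had 0.982, 0.731 and 0.564 RPKM in control and 0.458, 0.488 and 0.774 RPKM in PBZ, and the groups overlapped. At 36 HAI it had 5.02, 4.63 and 5.23 RPKM in control and 3.94, 3.32 and 3.80 RPKM in PBZ, so that each PBZ library was below each control. Its change with time was 2.59 (SE 0.21, limma adjusted p = 2.7e-05) in control and 2.52 (SE 0.24, limma adjusted p = 7.8e-05) in PBZ. As for the other copy, only its 36 HAI libraries passed the filter of 1 RPKM.

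At 24 HAI, where both were chosen for being lower in PBZ, Glyma.09G066500 had 8.44, 6.48 and 7.16 RPKM in control against 1.70, 3.29 and 3.28 RPKM in PBZ, a 2.67-fold lower mean. Glyma.15G172500 had 4.095, 3.97 and 3.94 RPKM against 1.40, 1.70 and 2.14 RPKM, a 2.29-fold lower mean. For both genes the highest PBZ library was below the lowest control library. In control most of the difference was present by 24 HAI, with ratios of means of 18.4 and 5.28 from 12 to 24 HAI and of 1.202 and 1.24 from 24 to 36 HAI. In PBZ the ratios were 11.3 and 3.05 from 12 to 24 HAI and 2.48 and 2.11 from 24 to 36 HAI. The later step was thus larger than the later step in control. It starts from the 24 HAI values that chose the genes, and it was not tested.

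The copies also changed places. Per kilobase, the ratio of Glyma.09G066500 to Glyma.15G172500 was 0.281 to 0.806 in the 6 libraries at 12 HAI, where Glyma.15G172500 was the more abundant in each. It was 1.21 to 2.06 in the 6 libraries at 24 HAI and 1.55 to 2.12 in the 6 at 36 HAI, where Glyma.09G066500 was the more abundant in each. The order was the same in control and PBZ at each time. At 12 HAI both genes were under 1 RPKM in each library (0.211 to 0.982 RPKM), so the ratios there rest on low values. Reads that mapped to more than 1 place had been removed by the authors, so levels of such similar genes rest on the reads that tell them apart.

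**Figure D2:**
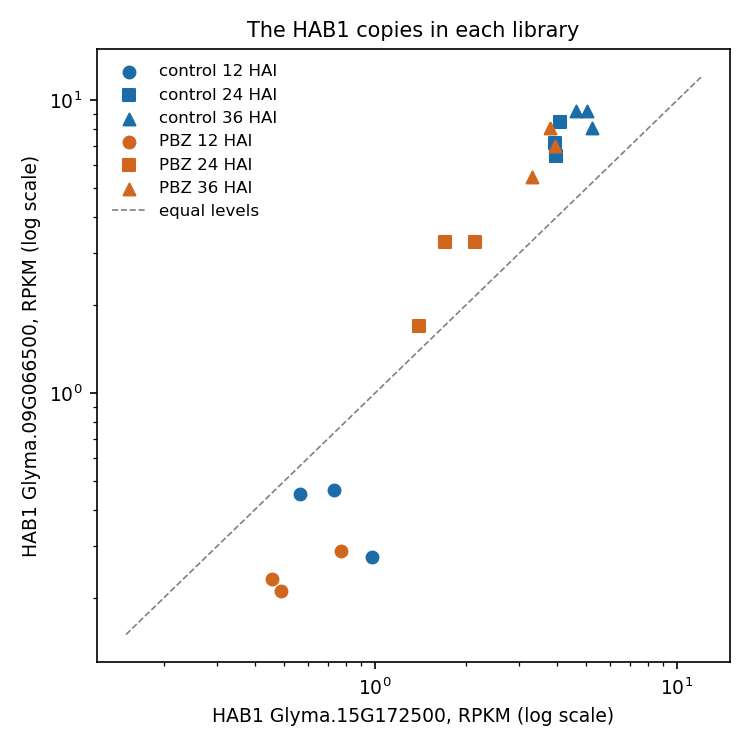
RPKM of HAB1 Glyma.09G066500 against HAB1 Glyma.15G172500 in the 18 libraries (log axes), by treatment (colour) and time (shape). The dashed line marks equal levels: the 6 libraries of 12 HAI lie below it and the 12 later libraries above it.

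The receptor gene PYL5 went the other way. At 12 HAI it had 4.70, 4.34 and 5.34 RPKM in control and 3.14, 2.36 and 3.74 RPKM in PBZ, each PBZ library below each control library. At 36 HAI it had 1.36, 0.258 and 1.91 RPKM in control and 1.57, 0.732 and 0.701 RPKM in PBZ, with wide spread and overlapping groups. PYL5 fell from 12 to 36 HAI, with a log2 change of -2.26 (SE 0.58, limma adjusted p = 0.00882) in control and -1.59 (SE 0.34, limma adjusted p = 0.00400) in PBZ. The low control replicate 2 at 36 HAI carried a part of the control value, which was -1.51 without it and still past both limits.

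At 24 HAI, where it was chosen for being higher in PBZ, PYL5 had 1.38, 1.25 and 1.71 RPKM in control and 4.15, 2.46 and 2.46 RPKM in PBZ. The groups did not overlap, and the PBZ mean (3.03 ± 0.974 RPKM) was 2.09 times the control mean (1.45 ± 0.241 RPKM). In control the mean at 24 HAI was 3.31-fold lower than at 12 HAI. In PBZ the ratio over that interval was 0.983, and the mean at 36 HAI was 3.02-fold lower than at 24 HAI.

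Calls required a limma adjusted p of 0.05 or less together with a log2 difference of 1 or more. By this rule NCED3 and both HAB1 genes were called higher and PYL5 lower at 36 than at 12 HAI, in control and in PBZ. Of all tested genes, 26.3% were called higher and 15.7% lower in control, and 27.7% and 16.1% in PBZ, so changes of this kind were common. The rise of NCED3 was among the larger ones, with 2.34% of tested genes changing more in control, against 4.76% for Glyma.09G066500, 14.6% for Glyma.15G172500 and 17.6% for PYL5. NCED3 and both HAB1 genes passed the filter of 1 RPKM only through their 36 HAI libraries. These calls held in each fit with 1 library left out and in each alternative tried, including the fit in control without both libraries that stood apart.

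The question of the study was how blocking gibberellin synthesis changes the axis, which PBZ against control addressed at each time. At 12 HAI, 3 of the 4 genes were below 1 RPKM and were not tested. Without the filter their differences were -0.06 for NCED3, -0.52 for Glyma.09G066500 and -0.35 for Glyma.15G172500, with limma adjusted p of 0.966 to 0.997. PYL5 had a log2 difference of -0.64 (3.08 ± 0.694 against 4.80 ± 0.506 RPKM, SE 0.20), which missed the limits with a limma adjusted p of 0.906 and an unadjusted p of 0.0120. Its PBZ libraries lay wholly below control, as for 6.74% of all tested genes, and 0.0102% of tested genes were called at 12 HAI. The difference was -0.71 without control replicate 2.

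At 24 HAI the groups did not overlap for any of the 4 genes. PBZ lay wholly below control for 22.8% of all tested genes and wholly above for 11.4%, and nothing is read from the count because the same contrast chose them. The differences were -1.15 for NCED3, -1.43 for Glyma.09G066500, -1.17 for Glyma.15G172500 and 0.98 for PYL5. That of NCED3 was -0.73 without PBZ replicate 1, under the limit of 1. Just inside the 2-fold limit lay PYL5 (2.09-fold) and NCED3 (2.12-fold). Just outside it, among the ABA genes listed by the study, lay the transporter gene NRT1.2 Glyma.08G296000 (1.65-fold lower) and the ABA glucosyltransferase gene AOG Glyma.02G104300 (1.47-fold higher).

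At 36 HAI, 0 of the 4 genes were called between PBZ and control, against 0.128% of all tested genes (42 genes), and 2 of the 4 had an unadjusted limma p under 0.05, as did 8.85% of tested genes. NCED3 differed by -0.14 (SE 0.25, limma adjusted p = 0.898). The HAB1 genes differed by -0.38 (SE 0.15, limma adjusted p = 0.537) for Glyma.09G066500 and by -0.42 (SE 0.11, limma adjusted p = 0.355) for Glyma.15G172500. For Glyma.15G172500 PBZ lay wholly below control, as for 4.77% of all tested genes, and without control replicate 3 its difference was -0.38. For PYL5 the difference was 0.03 (SE 0.67, limma adjusted p = 0.993), and its sign changed with the scaling of the libraries and without control replicate 2 (-0.73) or PBZ replicate 1 (-0.32).

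Whether PBZ acted differently at 36 than at 12 HAI was tested as an interaction, which was called for 0 of the 4 genes and for 0.0495% of all genes (17 of 34328), with 0 of the 4 and 7.43% of tested genes at an unadjusted p under 0.05. It was -0.07 (SE 0.81) for NCED3, 0.14 (SE 0.30) for Glyma.09G066500, -0.07 (SE 0.32) for Glyma.15G172500 and 0.67 (SE 0.74) for PYL5, with limma adjusted p of 0.902 to 0.990. The errors are as large as the differences or larger, so these data do not show whether the effects were alike.

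The levels in PBZ can also be placed along the control course, counted from the 12 HAI control mean. Such a share includes any difference between PBZ and control that was already present at 12 HAI. At 24 HAI the PBZ libraries had reached 72.9% of the control level change for NCED3, 63.4% for Glyma.09G066500, 48.8% for Glyma.15G172500 and 41.1% for PYL5, in log2 units from the 12 HAI control mean. The median over the 10648 genes that changed by at least 1 in control was 84.3%. At 36 HAI the shares were 97.3, 90.9, 83.8 and 98.8% for the same genes in that order, beside a median of 99.0% over 14941 genes. For PYL5 the 24 HAI share is not a change of PBZ axes since 12 HAI. PYL5 was already lower in PBZ at 12 HAI (log2 difference -0.64). Its PBZ mean at 24 HAI was 0.983 times that at 12 HAI. The 24 HAI shares rest on the contrast that chose the genes and are given as values.

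PYL5 and the HAB1 pair were also set against each other in each library, although other receptor and PP2C genes are expressed in these axes. The ratio of PYL5 RPKM to the summed RPKM of both HAB1 genes was 3.62 to 5.25 in control and 3.37 to 4.55 in PBZ at 12 HAI. At 36 HAI it was 0.0186 to 0.143 in control and 0.0590 to 0.144 in PBZ, so PYL5 went from above to below the summed HAB1 level in both treatments. Another receptor gene, PYR1 (Glyma.01G097000), had 17.16 ± 1.15 RPKM in control and 15.1 ± 0.972 RPKM in PBZ at 36 HAI, above that sum (13.8 ± 0.473 and 10.5 ± 1.58 RPKM), so the ratio describes PYL5 alone. At 24 HAI, which the choice of genes used, the ratio of PYL5 to summed HAB1 was 0.110 to 0.154 in control, overlapping the 36 HAI values. In PBZ it was 0.454 to 1.34, between the early and late values.

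**Figure D3:**
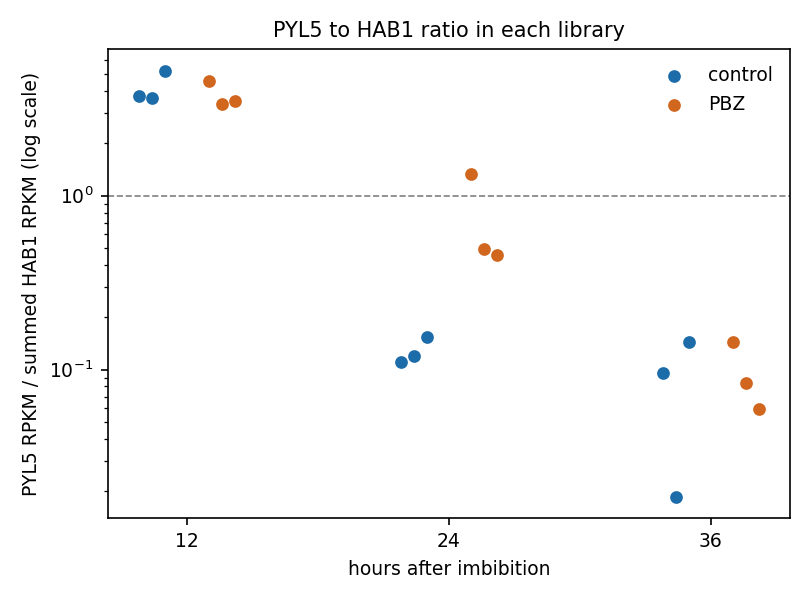
Ratio of PYL5 RPKM to the summed RPKM of both HAB1 genes in each library (log axis) by hours after imbibition, in control and PBZ, with the dashed line at equal levels. The 6 libraries at 12 HAI lie between 3.37 and 5.25 and the 6 at 36 HAI between 0.0186 and 0.144.

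In the order of the 6 conditions, NCED3 was highest in control and PBZ at 36 HAI, which overlapped, then in control at 24 HAI, PBZ at 24 HAI, and lowest in both groups of 12 HAI, which overlapped. Both HAB1 genes ran from control at 36 HAI through control at 24 HAI, PBZ at 36 HAI and PBZ at 24 HAI to 12 HAI. For Glyma.09G066500 the first 3 of these neighbours overlapped, and for Glyma.15G172500 they did not. PYL5 ran from control at 12 HAI through PBZ at 12 and 24 HAI, which overlapped, to control at 24 HAI and both groups of 36 HAI, which overlapped with each other.

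Over the 18 libraries the HAB1 genes had a Pearson r of 0.975 with each other on the log2 scale, as a description of libraries that share time and depth. Among 34475 genes, the 3 most like NCED3 were Glyma.11G106100 (r = 0.990), Glyma.09G256800 (0.989) and Glyma.08G270600 (0.988). Those most like Glyma.09G066500 were Glyma.17G148800 (0.991), the peroxidase gene Glyma.06G275900 (0.991) and Glyma.16G087300 (0.990). Those most like Glyma.15G172500 were Glyma.19G132300 (0.986), Glyma.02G037600 (0.981) and Glyma.07G126000 (0.981). PYL5 was most like Glyma.18G009700 (0.957), Glyma.13G148800 (0.952), annotated as another protein phosphatase 2C, and Glyma.07G153100 (0.942). With Spearman's rho in place of Pearson's r, 1 of the 3 genes was shared for NCED3 and 0 of 3 for each of the others.

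The rest of the pathway was read from 11 further ABA genes found in the shortened copy of the study's expression table used here. They were 4 genes that the study called and 7 uncalled genes, all on chromosome 1, so the list is a part of the pathway. The 4 that the study called on these libraries (ABCG40, ABF1, NRT1.2 Glyma.08G296000 and AOG) are not independent evidence of a direction. From 12 to 36 HAI in control, 7 of the 11 were called higher and 2 lower, beside 26.3% and 15.7% of all tested genes, with a median change of 1.19 against 0.01 over all tested genes. In PBZ, 6 of 9 tested were called higher and 0 lower, beside 27.7% and 16.1%, with a median of 1.36 against 0.09. In control, ABCG40, ABF1, NRT1.2 Glyma.08G296000 and NRT1.2 Glyma.01G042100 passed the filter of 1 RPKM only through their 36 HAI libraries, as did ABF1 in PBZ. These counts and medians are therefore given as values. AOG, PYL4 and SnRK2.3 had an adjusted p under 0.05 in PBZ with log2 changes of -0.87, -0.72 and -0.52, short of the limit of 1. ABF1 (Glyma.02G131700), a transcription factor gene of the ABF/ABI5 family, rose with NCED3, from 0.0846 ± 0.0337 to 4.44 ± 1.40 RPKM in control (log2 change 4.59, limma adjusted p = 8.3e-06).

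Receptor genes did not all move like PYL5. PYL1 (Glyma.01G018800) rose by 2.09 in control and 1.97 in PBZ (limma adjusted p = 0.000315 and 0.000193). PYR1 (Glyma.01G097000) rose by 1.15 and 1.66 (limma adjusted p = 0.000800 and 2.8e-05). PYL4 (Glyma.01G124700) fell in control as PYL5 did (log2 change -1.199, limma adjusted p = 0.00252), and changed by -0.72 in PBZ, under the limit of 1. The calls of PYR1 and PYL4 in control were lost without control replicate 1 at 12 HAI (0.95) and without control replicate 2 at 36 HAI (-0.94). The SnRK2 kinase gene SnRK2.3 (Glyma.01G183500) had group means of 17.03 to 25.7 RPKM and changed by -0.52 in control and in PBZ (limma adjusted p = 0.00230 and 0.00404), short of the limit of 1. SnRK2.6 (Glyma.01G204200) changed by 0.86 in control (limma adjusted p = 0.000351) and was called in PBZ at 1.03 (limma adjusted p = 0.000111), a call lost without PBZ replicate 1 at 36 HAI (0.99) and with other scalings (0.95 and 0.96). CYP707A1 (Glyma.01G153300), which encodes an ABA 8'-hydroxylase that inactivates ABA, rose by 1.19 in control and 1.36 in PBZ (limma adjusted p = 0.000137 and 0.000131).

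Between PBZ and control, 0 of the 8 tested genes of this list were called at 12 HAI, 2 of 9 at 24 HAI and 1 of 11 at 36 HAI, beside 0.0102%, 0.918% and 0.128% of all tested genes. Each called gene was among those listed because the study called them on these same libraries. Nothing is therefore read from the counts, and the p-values below are not independent of that choice. At 24 HAI ABCG40 (Glyma.19G169400), whose Arabidopsis match imports ABA into cells, was higher in PBZ by 1.05 (limma adjusted p = 0.0129). ABF1 was lower, with a difference of -1.19 (limma adjusted p = 0.0464). At 36 HAI AOG (Glyma.02G104300), annotated as an ABA glucosyltransferase, was higher by 1.29 (limma adjusted p = 0.0361). These calls were kept in 3, 1 and 0 of the 6 fits with 1 library left out, in that order. That of ABF1 was also lost without organelle-like genes (limma adjusted p = 0.0504), without the filter (0.0591), with all 18 samples in one fit (0.0793) and with a pseudocount of 1 (difference -0.69). That of ABCG40 was lost with all 18 samples in one fit (0.137) and a pseudocount of 1 (difference 0.87), and that of AOG without the filter (0.0564).

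Among the 7 genes of chromosome 1 that the study did not call, 0 were called between PBZ and control at any time. At 12 HAI PYR1 and PYL4, like PYL5, were lower in PBZ with no overlap, as were 6.74% of all tested genes. PYR1 had 4.71 ± 0.544 against 7.81 ± 1.94 RPKM (log2 difference -0.69, limma adjusted p = 0.888). PYL4 had 8.635 ± 0.611 against 10.42 ± 1.49 RPKM (log2 difference -0.26, limma adjusted p = 0.992). CYP707A1 was higher in PBZ by 0.32 at 12 HAI, with no overlap, and by 0.48 at 36 HAI, with overlap (limma adjusted p = 0.967 and 0.443). In these 7 genes the median difference at 24 HAI was 0.04, beside -0.07 over all tested genes.

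**Figure D4:**
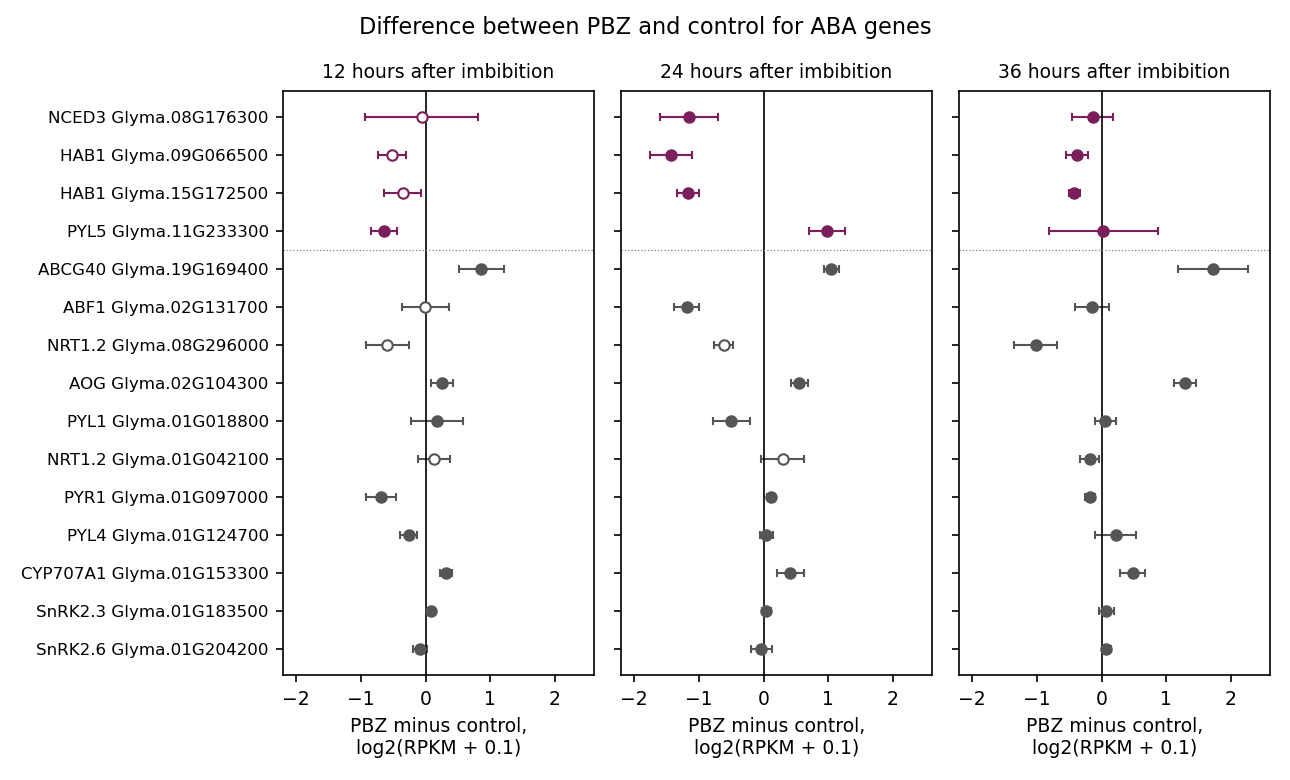
PBZ minus control in log2(RPKM + 0.1) at the 3 times (12, 24, 36 HAI) for the 4 genes (above the dotted line, purple) and 11 other ABA genes (grey). Bars are the SE of the difference from 3 and 3 libraries, and open points are genes with both means under 1 RPKM. NCED3 and both HAB1 genes lie near -1.15 to -1.43 at 24 HAI and PYL5 at 0.98, with differences nearer 0 at 36 HAI.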

How the data were processed

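RNA-seq of 18 libraries was analysed from the RPKM values that the authors deposited for 56044 genes. The authors removed rRNA reads, aligned with Novoalign 3.06.05 to the Wm82.a2.v1 genome, kept uniquely mapped reads and computed RPKM with Cufflinks 2.1.1 and its bias correction. The labelled kit does not mark strand, so reads of overlapping antisense genes cannot be told apart. The authors nevertheless state a stranded library type (fr-firststrand) for Cufflinks, and the effect of that setting on the values was not tested. No counts were used, so depth gives no interval per gene.

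From these values, log2(RPKM + 0.1) was compared with limma 3.58.1 in R 4.3.3 (variance trend, 3 against 3 libraries, Benjamini-Hochberg over all genes averaging 1 RPKM or more in either group), after the limma step was tested on simulated data. Calls needed an adjusted p of 0.05 or less with a log2 difference of 1 or more. Alternatives were other pseudocounts, no filter, size factors, organelle-like genes left out, all 18 samples in one fit, a replicate block and each library left out. The ratio of group means and the fit without both libraries that stood apart were added after seeing the data.

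Members and lists were chosen with earlier results of these data known. The text names the 4 genes, the 3 genes most like each by Pearson r, and ABA genes of the study's tables. The reference table matched 0 identifiers, so no sequence or coordinate was used, and the tissue marker was taken from the study's tables.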

Additional observations from a re-analysis of the deposited data

Results flagged for a closer look

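For PYL5 (Glyma.11G233300) the PBZ libraries were all below the control libraries at 12 HAI (log2 difference -0.64) and all above them at 24 HAI (0.98). Of all tested genes, 6.74% lay wholly below control at 12 HAI and 11.4% wholly above at 24 HAI. The 12 HAI difference was not called (limma adjusted p = 0.906). The difference between these times was not tested, because the 24 HAI contrast was used to choose the gene.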

How the results depend on the processing

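The 12 to 36 HAI calls of the 4 genes held in control and in PBZ in each fit with 1 library left out and in each other setting, with log2 changes of 2.76 to 6.04 for NCED3, 2.64 to 4.74 for Glyma.09G066500, 1.58 to 2.73 for Glyma.15G172500 and -2.82 to -1.04 for PYL5 over the other settings. At 36 HAI the PBZ difference of PYL5 was -0.064 with a pseudocount of 1 and -0.014 with median-ratio size factors, and with 1 library left out it ranged from -0.73 to 0.52, while that of NCED3 ranged from -0.45 to 0.079. The interaction was 0.20 for NCED3 with a pseudocount of 0.01, and for Glyma.09G066500 -0.17 with a pseudocount of 1 and -0.032 without both libraries that stood apart. With 1 library left out it ranged from -0.47 to 0.69 for NCED3, -0.25 to 0.14 for Glyma.15G172500 and -0.084 to 1.16 for PYL5. The causes of these shifts were not tested.

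Counts over all genes moved more. The 3 calls at 12 HAI in limma became 0 with a pseudocount of 1 or of 0.01 (1502 and 1471 genes at an unadjusted p under 0.05) and 18 in one fit of all 18 samples, and the 286 at 24 HAI became 21 in that fit. The 42 calls at 36 HAI became 26 without the filter. The 17 calls of the interaction became 4 with a pseudocount of 1, 6 without the filter and 0 without both libraries that stood apart (1885 at an unadjusted p under 0.05). With 1 library left out, the ranges were 0 to 7 at 12 HAI, 126 to 298 at 24 HAI, 0 to 17 at 36 HAI (0 without control replicate 1 or PBZ replicate 2, with 2721 and 2626 genes at an unadjusted p under 0.05) and 0 to 20 for the interaction.

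Nothing but the number is said to link samples of the same replicate number. Their deviations correlated at 0.03 to 0.26 at 12 HAI, 0.06 to 0.23 at 24 HAI and 0.07 to 0.28 at 36 HAI. For unlike numbers the values were -0.206 to 0.081, -0.225 to 0.015 and -0.194 to 0.065. What such samples shared was not tested. With the replicate block, 369 genes were called at 24 HAI, 77 at 36 HAI and 1 for the interaction. The calls of the 4 genes at 12 HAI, at 36 HAI, over time and in the interaction did not change. Among the other ABA genes, ABF1 lost its call at 24 HAI (limma adjusted p = 0.0503) and ABCG40 gained one at 36 HAI (0.0451) with the block.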
